A study of Mus musculus with 14 samples.

Results

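The loci described here are ribosomal RNA loci of the mouse genome, most of them scattered copies of the 5S gene, measured in MVH immunoprecipitates of chromatoid bodies and in sorted round spermatids. They are the rows typed as rRNA in 2 deposited tables of other RNAs, the first for MVH immunoprecipitates and the second for round spermatids, joined by Ensembl gene identifier. The tables held 95 such loci among 1788 loci in all. Of these 95 loci, 60 were listed in MVH IP, 69 in round spermatids, and 34 in both tables.

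The series profiled RNA through the purification of the chromatoid body from the testes of C57BL/6 mice aged at least 6 weeks, and all groups used here share that strain and age. MVH IP stands for RNA recovered with an antibody against MVH, the mouse Vasa homologue and a chromatoid body protein, from the second pellet of formaldehyde-crosslinked testis cells (3 libraries). Round spermatids were sorted from adult testes (2 libraries, of which 1 is labelled as RNA above 500 bp). Pellet2, pellet1 and supernatant are steps of the purification and lysate is its starting material, with 1 library each. Each deposited value stands for a whole group, so no value has a replicate error and no test between groups was possible. MVH IP and round spermatids differ in the cells they come from, in the immunoprecipitation and in the size label of 1 round spermatid library. That label, above 500 bp, exceeds the 82 to 148 nt of these RNAs. These differences cannot be told apart here.

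The chromatoid body is a cytoplasmic granule of round spermatids that gathers RNA helicases, PIWI proteins and many kinds of RNA. 5S RNA is the small ribosomal RNA that RNA polymerase III makes from its own genes, with a promoter that lies inside the transcribed sequence, and it joins the large ribosomal subunit together with the proteins Rpl5 and Rpl11. 5.8S RNA is also part of the large subunit but is cleaved from the long precursor made by RNA polymerase I. Mammalian genomes hold a tandem array of true 5S genes and, elsewhere, many diverged copies.

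Sequences were taken from the transcripts of GENCODE M21 (GRCm38), in which 86 loci matched by identifier, 8 by symbol and 1 not at all. The lengths given for MVH IP equalled the GENCODE lengths in 59 of 59 loci that had both, and the transcripts measured 82 to 148 nt. The commonest rRNA transcript of the annotation, 119 nt long and shared by 32 genes that all lie on chromosome 8, served as the 5S sequence for comparison. Identity is the share of alignment columns with the same base, so missing or inserted bases count as differences. The highest locus of MVH IP, Gm24876, is printed because its identity to the 5S sequence is low, in part through missing bases. It is given 5′ to 3′ on its own strand and in lower case throughout.
Gm24876: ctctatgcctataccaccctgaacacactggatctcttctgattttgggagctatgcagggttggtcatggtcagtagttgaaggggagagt
Against the 5S sequence in a global alignment, n-R5s115 had 2 substitutions, n-R5s194 had 5 and n-R5s28 had 6, each over the full 119 nt, whereas Gm24876 had 20 substitutions and lacked 27 bases.

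Values were read as FPKM, fragments scaled to the length of the RNA and to the number of mapped fragments, although the 2 tables carry no header that names the unit. Neither table listed a locus under about 5 FPKM, the lowest value of any type being 5.00 FPKM in MVH IP and 5.03 FPKM in round spermatids. The 60 rRNA loci of MVH IP ran between 9.75 and 4123 FPKM with a median of 52.4 FPKM. The 69 rRNA loci of round spermatids ran between 5.25 and 14499 FPKM with a median of 61.5 FPKM. The rRNA loci made up 1.25% of the summed FPKM of all listed loci in MVH IP and 3.66% in round spermatids. The small nucleolar RNAs (snoRNA) held 82.2% of the MVH IP sum and 50.8% of the round spermatid sum. Without them the rRNA share was 7.0% in MVH IP and 7.43% in round spermatids. In bulk samples such as these, fewer cells of a type and less RNA per cell cannot be told apart.

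A few loci carried most of the signal. In MVH IP, 9 loci at 1000 FPKM or more held 79.1% of the rRNA sum, and the highest alone held 14.6%. In round spermatids, 13 loci held 87.5%, and the highest alone held 29.1%. MVH IP had 14 loci between 100 and 1000 FPKM and 35 between 10 and 100 FPKM. Round spermatids had 15 and 30 loci in these ranges. Loci with a 5S name (n-R5s followed by a number) had a median of 48.2 FPKM over 37 loci in MVH IP and of 73.0 FPKM over 46 loci in round spermatids. The 22 loci with another name had a median of 53.7 FPKM in MVH IP, and 22 such loci had a median of 21.9 FPKM in round spermatids.

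**Figure D1:**
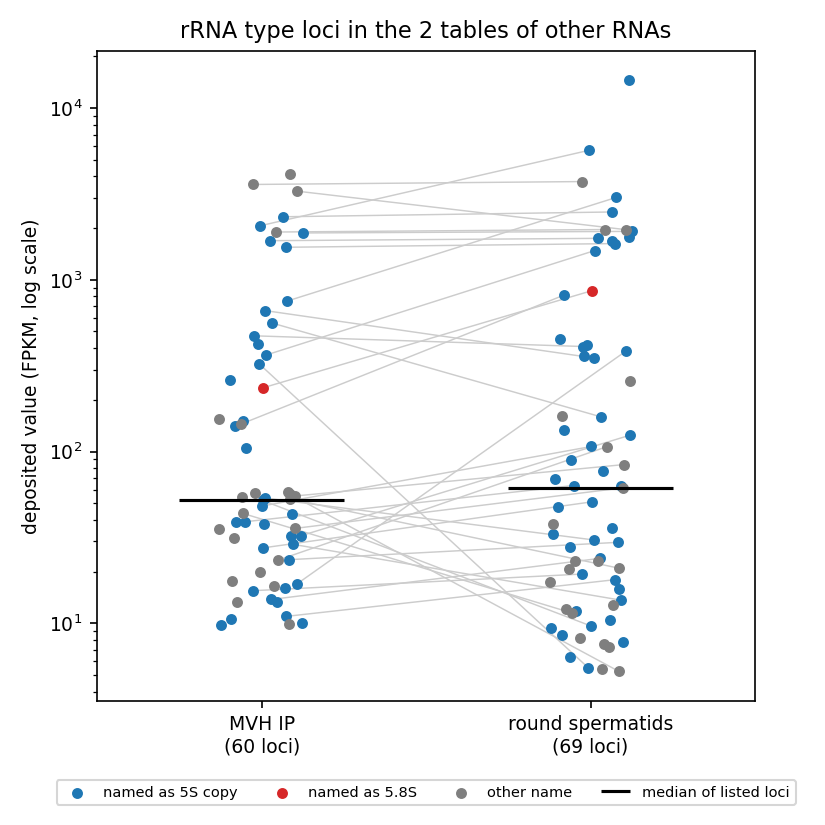
Deposited value of each rRNA locus (FPKM, log scale) in MVH IP, left, with 60 loci, and round spermatids, right, with 69 loci. Points are coloured by the name of the locus, bars mark the medians (52.4 and 61.5 FPKM), lines join the values of the 34 loci listed in both, and several lines above 1000 FPKM run almost level, while those lower down cross.

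The highest locus of MVH IP was Gm24876 (chr14:76145656-76145747, mm9, 92 nt), with 4123 FPKM, and round spermatids did not list it. It is 60.5% identical to the 5S sequence, with its 27 missing bases counted as differences beside 20 substitutions. The next, Gm26381 (chr16:41217858-41217949), is a 5S copy that ends after 92 nt, and it had 3588 FPKM in MVH IP and 3730 FPKM in round spermatids. Gm24601 (chr6:94776775-94776917) had 3279 FPKM in MVH IP and 1956 FPKM in round spermatids. Its sequence is 72.2% identical to 5.8S RNA and 46% identical to 5S RNA, so by sequence it stands with 5.8S.

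The remaining loci of the top 10 in MVH IP were 5S copies. n-R5s56 (chr13:104186282-104186386) had 2327 FPKM in MVH IP and 2482 FPKM in round spermatids. n-R5s193 (chr4:149191841-149191949) had 2063 FPKM in MVH IP and 5677 FPKM in round spermatids. Gm24573 (chr4:48775723-48775834) had 1897 FPKM in MVH IP and 1961 FPKM in round spermatids. These 3 loci thus include 2 with nearly the same value in both tables and 1 that was lower in MVH IP.
The full-length copies n-R5s194 (chr3:4338998-4339116) and n-R5s64 (chr12:87059427-87059545) had 1873 and 1546 FPKM in MVH IP, against 1913 and 1624 FPKM in round spermatids. n-R5s46 (chr14:37669115-37669230) had 1689 FPKM in MVH IP and 1742 FPKM in round spermatids. n-R5s68 (chr11:26985126-26985207), with 82 nt the shortest of all, had 753 FPKM in MVH IP and 3018 FPKM in round spermatids. It was the only locus of the MVH IP top 10 under 1000 FPKM there.

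In round spermatids, n-R5s115 on chromosome 8 stood highest with 14499 FPKM, and MVH IP did not list it. With 98.3% identity it is the locus closest to the 5S sequence among all 94 with a sequence, its own sequence being matched by symbol. Its row in the round spermatid table spans chr8:122434260-126869624, that is 4435365 nt for an RNA of 119 nt. The 32 genes that share the 5S sequence also lie on chromosome 8, and their part in this value was not tested. n-R5s1 on chromosome Y had 1777 FPKM in round spermatids, was not listed in MVH IP, and likewise has a long row (chrY:7429-383670).

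Over the 34 loci listed in both tables, values were set against each other as the log2 ratio of MVH IP over round spermatids after adding 1 FPKM to each, and a locus was counted as higher or lower at 2-fold or more. By this count 7 loci were higher in MVH IP, 9 were lower and 18 lay between. Among all 636 loci of every type listed in both tables, 47% were higher and 19.8% were lower. The median log2 ratio was −0.20 over the rRNA loci and 0.84 over all shared loci. Relative to that shift of 0.84, 3 rRNA loci were higher and 17 were lower, where 28.9% and 31.6% of all shared loci were. At 4-fold, without that shift, 3 rRNA loci were higher and 5 were lower, where 28% and 8.65% of all shared loci were. The 2 tables have no stated common scaling, and which of these zero points is the right one was not tested.

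Beside the other types, as a description without a test, the median of the rRNA loci lay nearest to that of the small nuclear RNAs. The median log2 ratio was −0.29 over 234 snRNA loci, 1.15 over 146 snoRNA loci, 1.73 over 123 miRNA loci and 2.74 over 99 lincRNA loci. Of the 24 shared loci with a 5S name, 4 were higher in MVH IP and 7 were lower, and of the 9 with another name, 3 were higher and 1 was lower. The only locus named as 5.8S, n-R5-8s1, had 235 FPKM in MVH IP and 863 FPKM in round spermatids, a log2 ratio of −1.87.

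**Figure D2:**
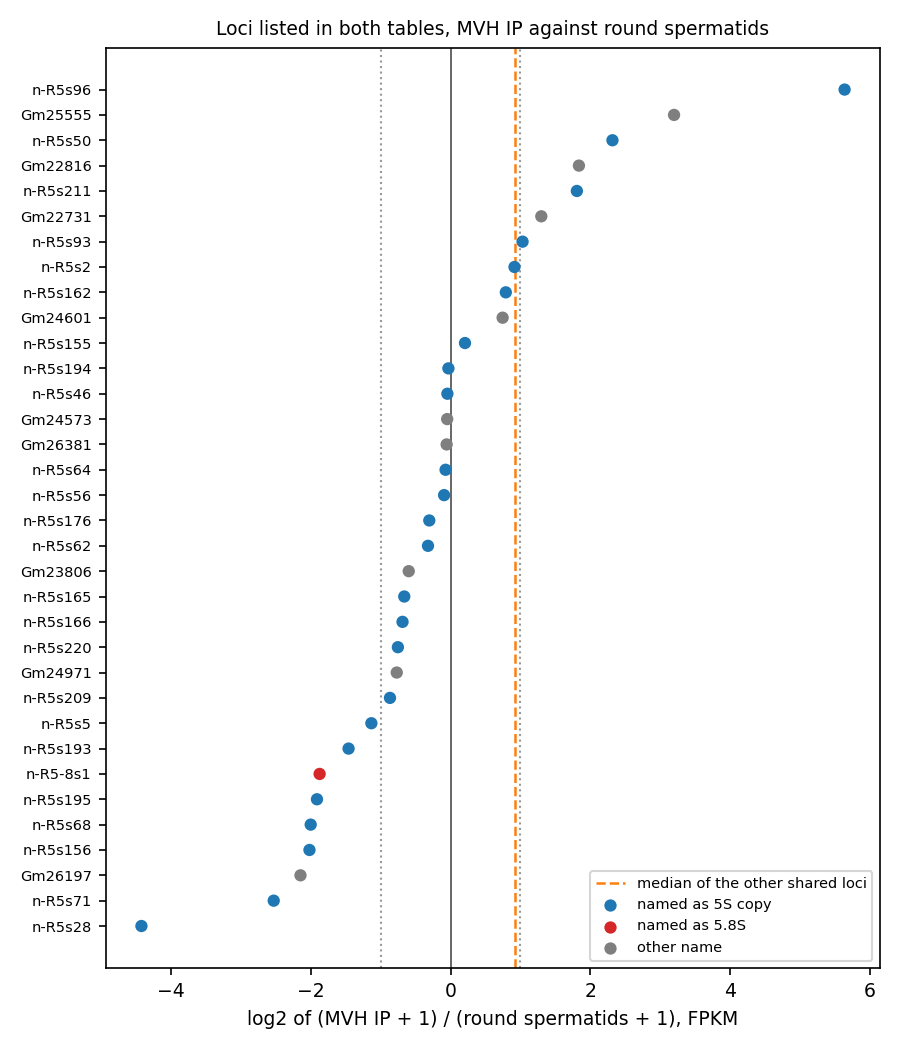
Log2 ratio of MVH IP over round spermatids (FPKM, 1 added to each) for the 34 rRNA loci listed in both tables, sorted from high to low, with dotted lines at 2-fold and a dashed line at the median of the other 602 shared loci (0.92). n-R5s96 stands apart at 5.64 and n-R5s28 at −4.42, and 6 loci lie next to 0.

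The largest ratio belonged to n-R5s96 (chr8:48804600-48804723), a copy of 124 nt with 5 inserted bases, which had 324 FPKM in MVH IP and 5.51 FPKM in round spermatids, a log2 ratio of 5.64. Gm25555 (chr17:32941812-32941922) had 56.4 FPKM in MVH IP and 5.25 FPKM in round spermatids, a log2 ratio of 3.20. n-R5s50 (chr14:110561057-110561167) had 51.9 FPKM in MVH IP and 9.62 FPKM in round spermatids, a log2 ratio of 2.32. For n-R5s96 and Gm25555 the round spermatid value lay close to the lowest that its table lists. Gm22816 (chr5:91322406-91322522) had 43.6 FPKM in MVH IP and 11.5 FPKM in round spermatids. n-R5s211 (chr1:46431042-46431160) had 559 FPKM in MVH IP and 159 FPKM in round spermatids, a log2 ratio of 1.81, and was the only locus of these 5 above 100 FPKM in both tables.

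At the other end, n-R5s28 (chr17:47985783-47985901) had 17.0 FPKM in MVH IP and 385 FPKM in round spermatids, a log2 ratio of −4.42. n-R5s71 (chr11:74133294-74133412) had 140 FPKM in MVH IP and 815 FPKM in round spermatids, a log2 ratio of −2.53. Both are full-length copies that are at least 90% identical to the 5S sequence. Gm26197 (chr14:78711033-78711147) had 23.3 FPKM in MVH IP and 107 FPKM in round spermatids. n-R5s156 (chr7:106646228-106646332) had 364 FPKM in MVH IP and 1480 FPKM in round spermatids. With n-R5s68, named above, these were the 5 smallest ratios, between −4.42 and −2.0.

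Besides the shared loci, 26 (27.4%) were listed in MVH IP alone and 35 (36.8%) in round spermatids alone, about the same as over all 1788 loci of every type (25.9% and 38.5%). Those listed in MVH IP alone had a median of 36.6 FPKM, and those in round spermatids alone a median of 27.9 FPKM. The rows differed in extent. No rRNA row of MVH IP exceeded 148 nt, whereas 21 of the 35 loci listed in round spermatids alone, and 3 of the 34 shared loci, had a row of more than 1000 nt in the round spermatid table. Some of the long rows carry the symbol of another gene, such as Zc3hc1 for n-R5s161 (24649 nt) and Akap6 for n-R5s58 (451633 nt). Others carry the name of the locus or no symbol. What the long rows add to their values was not tested. With round spermatid rows of 200 nt or less, a choice made after seeing the data, 14 loci were left in round spermatids alone.

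A group of 6 loci, noticed after the values were seen, had almost the same value in both tables. Gm26381, n-R5s56, Gm24573, n-R5s46, n-R5s64 and n-R5s194 differed by less than 0.1 on the log2 scale, with quotients of MVH IP over round spermatids between 0.938 and 0.979. For n-R5s64 the round spermatid row spans 2391 nt, against 119 nt in MVH IP. Centred on all shared loci, the same 6 lay between −0.94 and −0.88, and centred on the shared loci of other types between −1.01 and −0.95, where n-R5s56 counted as lower, so the near-equality holds for the values as deposited. As deposited, that is 17.6% of the shared rRNA loci, against 3.32% of the 602 shared loci of other types. Of the 8 rRNA loci at 1000 FPKM or more in both tables, these were 6, whereas among 89 such loci of other types 2 were as close. Among these 6, values were mostly lower where the RNA was longer: Gm26381 with 92 nt had 3588 FPKM in MVH IP, n-R5s56 with 105 nt had 2327 FPKM, n-R5s46 with 116 nt had 1689 FPKM, and n-R5s64 and n-R5s194, both with 119 nt, had 1546 and 1873 FPKM. Over all loci with a sequence, Spearman's rho between length and level was −0.14 in MVH IP (59 loci) and 0.03 in round spermatids (69 loci), a description only.

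The 6 loci share an unbroken stretch of 36 nt with the 5S sequence, positions 48 to 83. It occurs in 55 of the 354 rRNA genes of GENCODE M21 (15.5%) and in 9 of the 94 loci with a sequence (9.57%). The other loci that hold it are n-R5s193, n-R5s115 and n-R5s1, which were not used to find it. Their values were 2063 FPKM for n-R5s193 in MVH IP, and 5677, 14499 and 1777 FPKM for n-R5s193, n-R5s115 and n-R5s1 in round spermatids, where n-R5s115 and n-R5s1 have the long rows given above. The 6 loci from which the stretch was taken were picked by their values, which all lie above 1000 FPKM, so their levels lend no support to a link with the stretch. Genes that hold the stretch but are listed in neither table have no value here, so the other listed holders do not test such a link either. Among loci without the stretch, 2 reached 1000 FPKM in MVH IP (Gm24876 and Gm24601) and 4 did so in round spermatids (n-R5s68, Gm24601, n-R5s161 and n-R5s156). Of these, n-R5s161 has a round spermatid row of 24649 nt that carries the symbol Zc3hc1. How reads that fit several copies were counted is not stated in the labels or tables, and its part in these values was not tested.

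**Figure D3:**
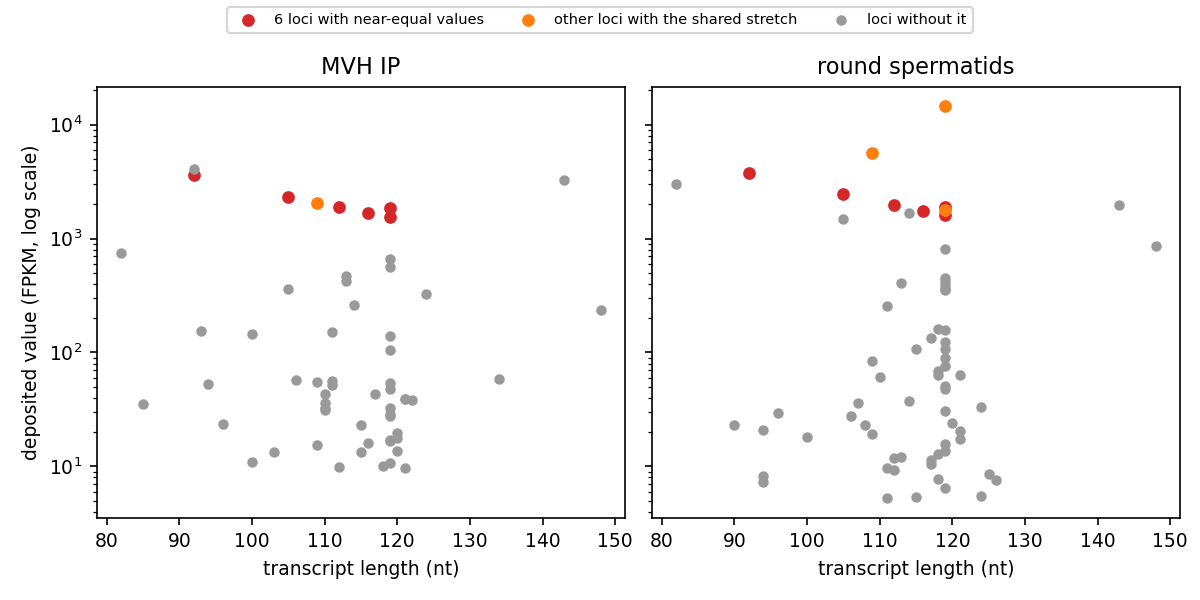
Deposited value (FPKM, log scale) against transcript length (nt) in MVH IP (left) and round spermatids (right), with the 6 loci of near-equal value in red, the other loci that hold the shared stretch of 36 nt in orange and the rest in grey. The red points sit at the same heights in both panels and mostly lie lower at greater length.

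Levels were also compared with overall identity to the 5S sequence, leaving out n-R5-8s1. Gm24601, at 46% identity, was kept in the band under 70%, although its sequence is closer to that of n-R5-8s1. Missing bases lower the identity as substitutions do, so a shortened copy can fall in a lower band. Gm26381, with 3 substitutions and 27 missing bases, stands at 74.8%. In round spermatids the 16 loci at 90% identity or more had a median of 372 FPKM, the 16 between 80 and 90% had 80.3 FPKM, the 20 between 70 and 80% had 21.6 FPKM and the 16 under 70% had 19.0 FPKM. In MVH IP the medians were 140 FPKM over 9 loci, 104.5 FPKM over 11, 39.0 FPKM over 22 and 44.1 FPKM over 16. With round spermatid rows of 200 nt or less, a choice made after seeing the data, the round spermatid medians were 159 FPKM over 9 loci at 90% or more, 820.2 FPKM over 8, 23.9 FPKM over 13 and 20.6 FPKM over 13, so that the highest median was then that of the loci between 80 and 90%. Spearman's rho between identity and level was 0.17 over 58 loci in MVH IP and 0.47 over 68 loci in round spermatids, or 0.35 over 43 loci with the shorter rows. These loci share libraries and, in part, sequence, so the coefficients only describe the tables. Of the loci listed in MVH IP alone, 0 of 25 with a sequence reached 90% identity, against 7 of 35 listed in round spermatids alone and 9 of 34 listed in both. Of the 7, 6 have long rows in the round spermatid table, and among the 14 loci listed in round spermatids alone with rows of 200 nt or less, 1 (n-R5s210) reached 90%. No locus was identical to the 5S sequence, and none was identical to another rRNA gene of the annotation, although 17 of 94 had another rRNA gene at 90% identity or more.

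**Figure D4:**
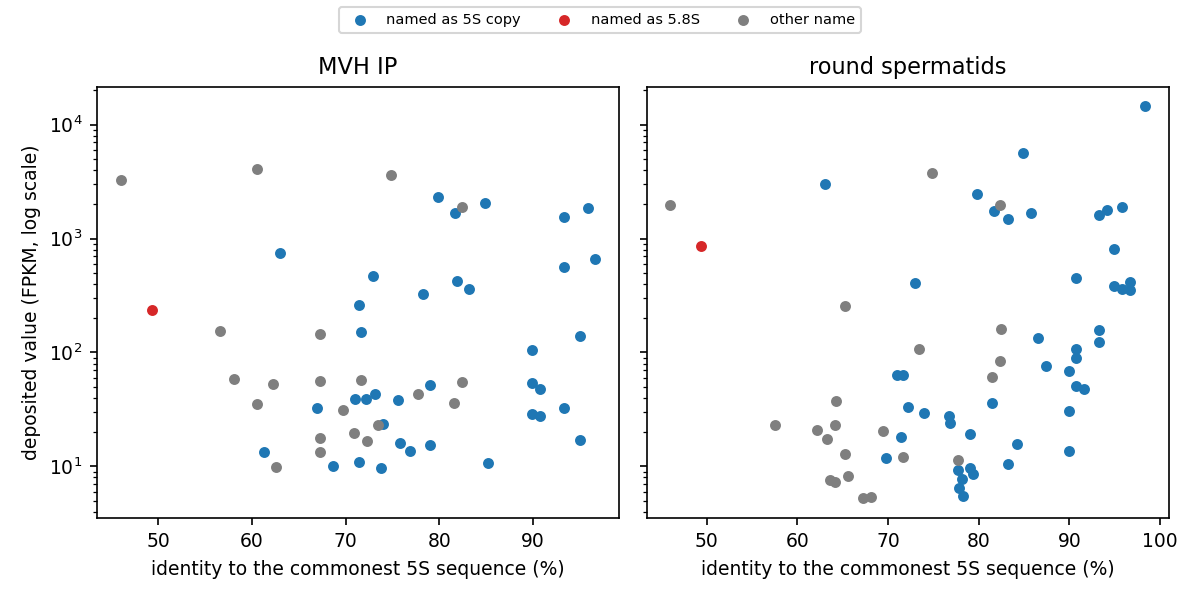
Deposited value (FPKM, log scale) against identity to the commonest 5S sequence (%) in MVH IP (left) and round spermatids (right), coloured by the name of the locus. In round spermatids the points at 90% or more have a median of 372 FPKM and those under 70% a median of 19.0 FPKM (159 and 20.6 FPKM with rows of 200 nt or less), while in MVH IP values of 1000 FPKM or more occur between 46% and 95.8% identity.

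Conservation was uneven along the RNA. The internal promoter of 5S genes, described first in Xenopus, consists of box A, an intermediate element and box C, at positions 50 to 64, 67 to 72 and 80 to 97. Over 92 loci aligned to the 5S sequence, the same base was found on average in 88.9% of loci across box A, in 89.1% across the intermediate element and in 76.8% across box C. The bases before the promoter had a mean of 79.2% and those after it, positions 98 to 119, a mean of 61.9%. All 92 loci were counted at each position, so a base missing from a shortened copy counted as not the same. Missing and changed bases are thus not separated in these means. The 36-nt stretch contains box A and the intermediate element.

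**Figure D5:**
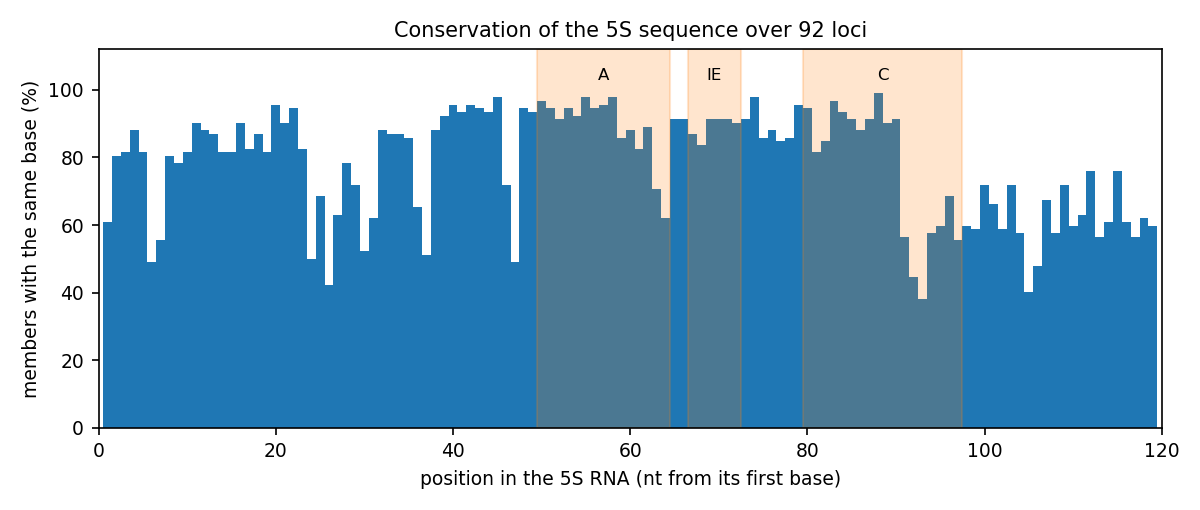
Share of 92 loci that carry the same base as the commonest 5S sequence (%) at each position of the RNA, with box A, the intermediate element (IE) and box C of the internal promoter shaded. Box A averages 88.9% and the positions after box C average 61.9%, with missing bases counted as not the same.

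The tables label many of these loci with the symbol of a gene nearby. Of the 60 loci of MVH IP, 19 carried the symbol of another gene. Of these, 2 lay inside the span of that gene in a joint table of the purification steps, which compares pairs of conditions. Whatever their symbol, 7 of the 60 loci overlapped a feature of that joint table. Gm24876, with 4123 FPKM, lies within Cog3, which encodes a subunit of a Golgi tethering complex and had 8.18 FPKM in lysate, with a log2 fold change of −0.17 for MVH IP over lysate in the authors' deposited table. Gm25555 lies within the zinc finger gene Zfp811, which had 0.460 FPKM in lysate. The log2 fold change of Zfp811 for MVH IP over lysate in the authors' deposited table was 2.41. Gm26197 overlaps Mir2145-2, which was listed at 0 in pellet2, pellet1, supernatant and lysate. None of the 60 loci overlapped a transposable element listed for MVH IP or round spermatids.

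No rRNA locus appears under its own name in the joint table, so the loci have no value from lysate here. By symbol, the only gene of the rRNA name list there was Rn4.5s (chr6:47702750-47702924), a rodent RNA made by RNA polymerase III that is not a part of the ribosome. It had 1115 FPKM in pellet2, 1141 FPKM in pellet1, 1251 FPKM in supernatant and 1399 FPKM in lysate. Its log2 ratio over lysate was −0.33 for pellet2, −0.29 for pellet1 and −0.16 for supernatant. For MVH IP over lysate the authors' deposited table gives a log2 fold change of −1.65 with a q-value of 0.205. The q-values of the authors' deposited table for pellet2, pellet1 and supernatant were 0.908, 0.926 and 0.971.

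Of 57 protein genes that make, bind or process rRNA, 50 had a tested log2 fold change of MVH IP over lysate in the authors' deposited table. Of these, 25 were higher in MVH IP by 2-fold or more and 0 were lower, where 49.5% of 10115 genes were higher and 6.44% were lower. The median log2 fold change was 1.00 over the list and 0.98 over all genes, and relative to that shift of 0.98, 11 were higher and 8 were lower, where 23.1% and 22% of all genes were. Higher were 9 of 20 genes of 5S transcription, 3 of 6 of the 5S particle, 4 of 8 of RNA polymerase I transcription and 9 of 16 of rRNA processing.
Polr3f, a subunit of RNA polymerase III, had 2.59 FPKM in lysate, and its log2 fold change in the authors' deposited table was 3.31 with a q-value of 0.0217. Polr3a, the largest subunit, had 2.75 FPKM in lysate, and its log2 fold change in the authors' deposited table was 2.70 with a q-value of 0.0739. Gar1, a protein of the snoRNPs that guide pseudouridylation, had 3.99 FPKM in lysate and a log2 fold change of 2.46 in the authors' deposited table with a q-value of 0.399. The lowest log2 fold changes of the list in the authors' deposited table were −0.92 (q-value 0.785) for Polr3e and −0.51 (q-value 0.926) for Polr3c, both polymerase subunits, and −0.39 (q-value 0.975) for Rrs1, which in yeast brings the 5S particle to the ribosome precursor.

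The round spermatid label was checked in the tables of genes, which also list values from about 5 FPKM. Of 5 round spermatid markers, 4 were listed in MVH IP and 5 in round spermatids, led by Tnp1 with 14304 FPKM in MVH IP and 3459 FPKM in round spermatids. Of 3 meiotic markers, 2 were listed in each table, with sums of 157 FPKM in MVH IP and 19.1 FPKM in round spermatids. The markers differed: Sycp1 had 92.2 FPKM in MVH IP and 5.11 FPKM in round spermatids. Hormad1 was listed in MVH IP alone (64.6 FPKM) and Sycp3 in round spermatids alone (14.0 FPKM). MVH IP listed 2 of 5 Sertoli cell markers, summing to 164 FPKM, and 4 of 4 Leydig cell markers, summing to 102 FPKM, while round spermatids listed 0 of either. The Sertoli cell markers Sox9, Amh and Rhox5 were listed in neither table. The part of these other cells in the rRNA values was not tested.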

How the data were processed

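RNA-seq libraries were primed with not-so-random primers, and products of 350 to 500 bp were taken from a gel, per the labels' protocols, which is longer than the 82 to 148 nt of these RNAs. TopHat and Cuffdiff with mm9 are named in the submitters' processing notes, without versions. The authors deposited FPKM as 1 value per group, and log2 fold changes and q-values of pairs of conditions in a joint table, per the file headers. The design foresaw limma on values per library. With 1 value per group it was replaced by log2 ratios of FPKM + 1, counted at 2-fold or more, with no test. For MVH IP over lysate the authors' log2 fold changes were used as deposited, for genes with the status OK and a value in both conditions, since the MVH IP levels of that table belong to no single library.

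Round spermatid starts were moved by 1 to count from 1. Where a joint table feature had differing values, the highest was used. Sequences were aligned globally with Biopython 1.88 (match 2, mismatch −1, gap opening −3, extension −1), in Python 3.11.15 with pandas 2.3.3, and ratios, counts and identities were tested on simulated data. Named were the 10 highest loci of each table, the 5 largest and 5 smallest ratios, rRNA symbols of the joint table and 3 pathway genes at each end. Others were named after their values were seen. Members and lists were chosen with earlier results of these data known. The labels and tables state no sequencing depth, so counting intervals are not given. 1 column of per-sample values (small RNA) was not used. IgG IP, ACR IP and hetMIWI round spermatids were not analysed here. The letters of the 5S sequence and of its close copies are not reported here.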

Additional observations from a re-analysis of the deposited data

How the results depend on the processing

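The counts over shared rRNA loci moved with the zero point and the threshold. Centred on all shared loci, 3 loci were higher in MVH IP and 17 were lower, where 28.9% and 31.6% of all shared loci were. The median log2 ratio was then −1.04. Centred on shared loci of other types, 3 were higher, 18 were lower and the median was −1.12. At 4-fold, without centring, 3 were higher and 5 were lower, where 28% and 8.65% of all shared loci were. The median level in round spermatids was 115.7 FPKM over loci listed in both tables. With round spermatid rows of 200 nt or less, an alternative chosen after seeing the data, 14 loci were listed in round spermatids alone and the median level there of loci at 90% identity or more was 159 FPKM. Centred on all genes, the log2 fold change of Rn4.5s for MVH IP over lysate was −2.63. So centred, the pathway list had 11 higher and 8 lower members, where 23.1% and 22% of all genes were, and its median was 0.019. A pseudocount of 0.1 was not run for MVH IP over lysate, where the authors' fold changes were used. In all, 31 of the summary values under an alternative stayed within 1.5 times (counts) or 0.1 (log2), 15 moved further, and 0 changed sign among called loci. Of the log2 ratios of named loci under an alternative, 98 stayed within 0.1 and 45 moved further. Alternatives that only filter loci cannot change the ratio of a single locus, and centring shifts every ratio by the same amount. These 2 counts therefore do not measure how stable the ratios are.

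No paired analysis was possible because each group has a single pooled value. For the same reason leaving out a replicate could not be run. Low values are coarse: at 121 nt, n-R5s157 had 9.75 FPKM in MVH IP while n-R5s166 and n-R5s18 both had exactly 4 times that, 38.99 FPKM. The MVH IP values of n-R5s28 (17.0 FPKM) and Gm26197 (23.3 FPKM), named among the smallest ratios, lie within this range.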
